A study of Mus musculus with 6 samples.

Results

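Retinoic acid is made from vitamin A by the cell that signals and acts through nuclear receptors in the cell that responds. Retinol is oxidized to retinaldehyde, the ALDH1A enzymes oxidize retinaldehyde to retinoic acid, and the acid is then carried by binding proteins, bound by RAR receptors or broken down by CYP26 enzymes. In the inner ear this pathway is known for its part in patterning the otocyst and in the differentiation of hair cells (HCs). The 9 genes described here are the synthesis enzymes *Aldh1a1*, *Aldh1a2* and *Aldh1a3*, the retinaldehyde reductase *Dhrs3*, the cellular binding proteins *Crabp1* and *Crabp2*, the degrading enzyme *Cyp26b1*, and the receptors *Rara* and *Rarb*. They were taken by symbol from the 14865 genes of the deposited table, and all 9 were found there.

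Cochlear ducts of C57BL/6 mice were dissected at postnatal day 8 from *Gfi1*+/+ and *Gfi1*cre/+ animals, and polyA RNA was sequenced in 3 libraries per genotype. In *Gfi1*cre/+ mice part of the coding region of 1 *Gfi1* allele is replaced by Cre recombinase, so Cre is driven by the *Gfi1* locus, which is active in HCs and in the immune lineage. The line, which was first derived on a mixed background, was kept on C57BL/6J. The *Gfi1*+/+ libraries each came from both cochleae of 1 mouse, whereas the *Gfi1*cre/+ libraries each pooled 6 cochleae of 3 mice. The comparison asks whether gene expression in the cochlea differs when 1 copy of *Gfi1* is lost, at an age chosen to precede later HC loss. Values are normalized reads, that is, the read count of a gene after scaling each library by its size factor, and between 13603908 and 19359753 reads were counted on genes per library.

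The tissue carried the markers of a cochlear duct, and also those of bone, cartilage, mesenchyme and blood. *Otof*, *Slc26a5* and *Myo7a* of HCs, *Kcnq1* of the stria vascularis and *Coch* of the spiral ligament each had at least 266.99 normalized reads in every library. The 9 listed of 10 HC markers summed to between 9307 and 10628 normalized reads in *Gfi1*+/+ and between 9180 and 9460 in *Gfi1*cre/+, and *Atoh1* was not listed. The 7 bone and cartilage markers summed to between 296574 and 419008 in *Gfi1*+/+ and between 358304 and 383701 in *Gfi1*cre/+. For the 9 fibrocyte and mesenchyme markers the sums lay between 219916 and 246104, and between 230020 and 237113. The 7 erythroid markers summed to between 29477 and 43831, and between 38327 and 66358. Which cells the reads of the retinoic acid genes came from was not tested. *Gfi1* had between 147 and 160 normalized reads in *Gfi1*+/+ and between 130 and 139 in *Gfi1*cre/+, and exons outside the replaced part add to the count of the *Gfi1*cre/+ allele. The summed reads of the Y-linked *Ddx3y*, *Kdm5d*, *Eif2s3y* and *Uty* were at most 2.10 in *Gfi1*+/+ libraries and at least 794 in *Gfi1*cre/+ libraries, so sex and genotype cannot be told apart in any comparison below. The female-expressed *Xist* had between 7338 and 8138 normalized reads in *Gfi1*+/+. In *Gfi1*cre/+ replicates 1 to 3 it had 5359, 4987 and 2301, so these pools were not all male and their share of the sexes varied. *Gfi1*+/+ replicate 1 stood apart from the other libraries, with a score of -44.0 on a first principal component on which the other 5 libraries lay between -0.304 and 16.2. Its summed reads of 9 neuron markers were 10010, against 1786 to 3650 in the other libraries, and each of the 9 markers was highest there.

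The genes of the set differ in how directly retinoic acid itself drives them, and *Rarb* is the textbook response gene. Its own promoter holds a retinoic acid response element, a direct repeat of a 6-base motif with a spacer of 5 bases, to which RAR and RXR bind together. RefSeq promoter sequences, which run from 250 bases before to 50 bases after a transcript's start in GRCm38, were given for 7 of the 9 genes, without *Aldh1a3* and *Crabp2*. They were searched on both strands for direct repeats, in any pairing of AGGTCA (the consensus motif), AGTTCA (the downstream copy in *Rarb*), GGTTCA (the upstream copy in *Rarb*) and GGGTCA (a common variant), with spacers of 1, 2 or 5 bases. The 1 match among the 13 promoters of these genes was in *Rarb*. The search had to find it, because both of its motifs and its spacer were among those searched for. The match therefore does not set *Rarb* apart from the other genes. The *Rarb* match is shown, with 6 bases on either side, because it is the response element described above, and the capitals mark both copies of the repeat:
*Rarb* element: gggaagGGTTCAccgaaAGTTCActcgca

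The stretch lies at chr14:16575507-16575535 of GRCm38 on the minus strand, from which it is read 5′ to 3′, and its repeat spans bases 53 to 37 before the RefSeq start. Of the 4 *Rarb* transcripts of GENCODE release 21 for mouse (M21) that span it, 2 hold it in an exon as 5′ UTR, and 2 hold it in an intron. Reads were counted per gene, so the level of *Rarb* below does not separate its 7 annotated transcripts. Repeats of these motifs with a spacer of 5 bases were found in 0.0974% of the 32851 RefSeq promoters of the same length, with a spacer of 2 bases in 0.268% and with a spacer of 1 base in 0.222%. The same ordered pair of motifs as in *Rarb*, with a spacer of 5 bases, occurred in 2 of the 32851, that of *Rarb* included. A match describes letters only, and promoters without a match may hold elements outside this window.

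None of the 8 retinoic acid genes that could be tested passed the test between *Gfi1*cre/+ and *Gfi1*+/+ cochleae. Testing was done by limma on log2(normalized reads + 1) where any library reached 40 normalized reads, a minimum that *Crabp1* alone of the 9 did not reach. Of the 8, 6 had a lower and 2 a higher mean in *Gfi1*cre/+, and 0 had a p-value under 0.05 before or after Benjamini-Hochberg adjustment over the 14455 genes tested. Among all genes tested, 3.04% had an unadjusted p-value under 0.05 (2.02% with a lower mean in *Gfi1*cre/+) and 0.0277% an adjusted one. Those with an adjusted p-value under 0.05 were the 4 Y-linked genes *Ddx3y*, *Kdm5d*, *Eif2s3y* and *Uty*. The count among the 8 retinoic acid genes was also 0 at both thresholds with edgeR and with DESeq2. The median log2 difference of the 9 genes was -0.04, and that of the 8 tested was also -0.04, beside -0.00012 over all genes tested. The RNA comes from whole ducts, where fewer cells of a type and less RNA per cell cannot be told apart.

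**Figure D1:**
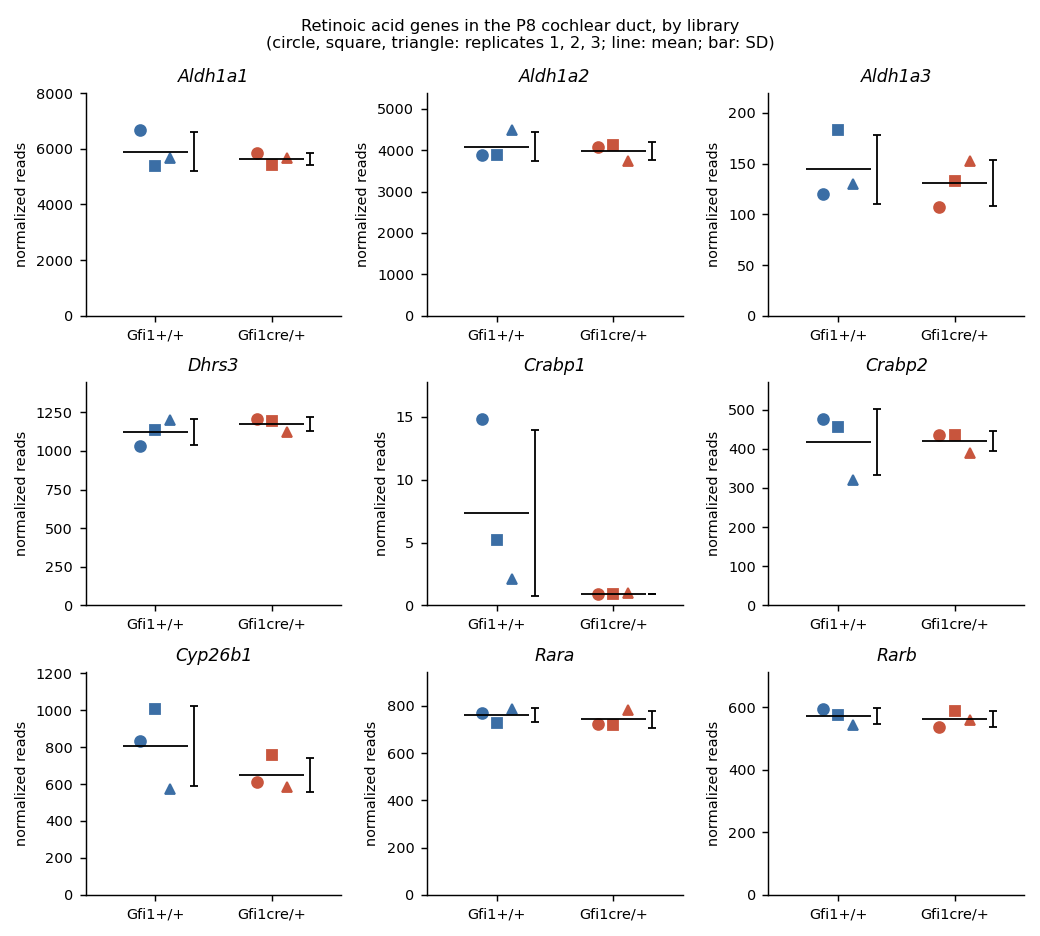
Normalized reads of the 9 retinoic acid genes in each of the 6 libraries, by genotype (3 libraries each), with the mean as a line and the SD as a bar. The genotypes overlap in every panel except *Crabp1*, where the *Gfi1*+/+ libraries sit between 2.11 and 14.8 and the *Gfi1*cre/+ libraries between 0.87 and 0.94.

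The synthesis enzymes *Aldh1a1* and *Aldh1a2* had the most normalized reads of the set, and *Aldh1a3* had far fewer. *Aldh1a1* (ENSMUSG00000053279, chr19:20492715-20643465, plus strand) had 6679, 5376 and 5653 normalized reads in the *Gfi1*+/+ libraries, given here and below in the order of replicates 1 to 3, and 5840, 5408 and 5668 in *Gfi1*cre/+. The highest value was that of *Gfi1*+/+ replicate 1, and the other *Gfi1*+/+ libraries lay within or just below the range of *Gfi1*cre/+. Its log2 fold change (here always *Gfi1*cre/+ over *Gfi1*+/+) was -0.06 (standard error 0.0826, adjusted p = 0.999 from limma with Benjamini-Hochberg adjustment), with a 95% interval from 0.842-fold to 1.09-fold. *Aldh1a1* shared 6.54% of the 50-base words of its longest transcript with other genes, chiefly its close copy *Aldh1a7*, which had between 124.67 and 172 normalized reads.

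*Aldh1a2* (ENSMUSG00000013584, chr9:71215789-71296243, plus strand), the main embryonic source of retinoic acid, had 3877, 3891 and 4488 normalized reads in *Gfi1*+/+ and 4068, 4135 and 3734 in *Gfi1*cre/+. The extremes of the 6 libraries belonged to the replicates numbered 3 of either genotype, and the groups overlapped. The log2 fold change was -0.04 (standard error 0.0731, limma), with an interval from 0.870-fold to 1.09-fold.

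*Aldh1a3* (ENSMUSG00000015134, chr7:66390890-66427517, minus strand), the third enzyme of the family, was a minor transcript here. It had 120, 183 and 130 normalized reads in *Gfi1*+/+ and 107, 133 and 153 in *Gfi1*cre/+, and *Gfi1*+/+ replicate 2 was the high library. Its log2 fold change of -0.13 had a standard error of 0.185 in limma, and the interval ran from 0.684-fold to 1.22-fold, wider than those of *Aldh1a1* and *Aldh1a2*. Summed over the 3 enzymes, normalized reads came to between 9450 and 10676 in *Gfi1*+/+ and between 9555 and 10015 in *Gfi1*cre/+, and the groups overlapped.

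*Dhrs3* (ENSMUSG00000066026, chr4:144892827-144928209, plus strand) returns retinaldehyde to retinol and so holds back synthesis, and it is itself raised by retinoic acid. It had 1032, 1133 and 1200 normalized reads in *Gfi1*+/+ and 1205, 1194 and 1122 in *Gfi1*cre/+. The lowest value was that of *Gfi1*+/+ replicate 1, and the other 5 libraries lay close together. The log2 fold change was 0.07 (standard error 0.0685, limma), with an interval from 0.941-fold to 1.17-fold.

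Of the binding proteins, one was well detected and the other nearly absent. *Crabp2* (ENSMUSG00000004885, chr3:87948666-87953376, plus strand), which delivers retinoic acid to RAR in the nucleus, had 475, 455 and 321 normalized reads in *Gfi1*+/+ and 434, 435 and 390 in *Gfi1*cre/+. The *Gfi1*cre/+ values all lay inside the *Gfi1*+/+ range, of which replicate 3 was the low end. Its log2 fold change was 0.03 (standard error 0.139, limma), with an interval from 0.821-fold to 1.27-fold.

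*Crabp1* (ENSMUSG00000032291, chr9:54764748-54773110, plus strand), which holds retinoic acid in the cytoplasm, was close to the limit of detection. Its values were 14.8, 5.24 and 2.11 normalized reads in *Gfi1*+/+ and 0.87, 0.89 and 0.94 in *Gfi1*cre/+, which rest on 12, 5 and 2 reads and on 1 read in each *Gfi1*cre/+ library. It was the 1 gene of the 9 whose genotypes did not overlap, as was the case for 7.52% of the 14455 genes tested and for 7.64% of all listed genes (exact permutation test of *Crabp1*, p = 0.1, two-sided, which is the lowest p this design can give). Over the pooled 19 and 3 reads, the level in *Gfi1*+/+ was 7.79 times that in *Gfi1*cre/+, with an exact 95% interval from 2.29 to 41.1 for counting error only. Without *Gfi1*+/+ replicate 1 the ratio was 4.09, with an interval from 0.934 to 24.5. With all listed genes tested, its unadjusted p in limma was 0.101 (log2 fold change -1.83).

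The order of *Crabp1* in the *Gfi1*+/+ libraries was also that of the neuron markers. For the 9 neuron markers the sums were 10010, 3650 and 2276 in *Gfi1*+/+ and 1786, 2255 and 2640 in *Gfi1*cre/+, which overlapped. The 6 glia markers summed to 37356, 19023 and 21045 in *Gfi1*+/+, which is not the order of *Crabp1*, and to between 15847 and 24460 in *Gfi1*cre/+. The part of neurons and glia in the *Crabp1* difference was not tested.

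**Figure D2:**
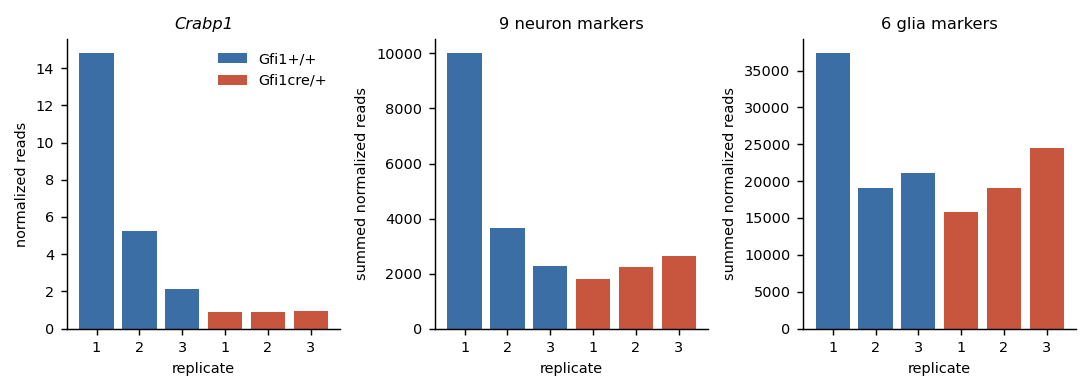
Normalized reads of *Crabp1* and summed normalized reads of 9 neuron and 6 glia markers, one bar per library, with replicate numbers on the horizontal axis. *Gfi1*+/+ replicate 1 is the highest library in each panel, at 14.8, 10010 and 37356, and *Crabp1* is at 1 read in each *Gfi1*cre/+ library.

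*Cyp26b1* (ENSMUSG00000063415, chr6:84571414-84593908, minus strand), which hydroxylates retinoic acid for clearance, had the largest fold change of the 8 genes tested, and this did not pass the test. It had 834, 1007 and 575 normalized reads in *Gfi1*+/+ and 614, 755 and 581 in *Gfi1*cre/+, which are 806 ± 218 and 650 ± 92.2 (SD, n = 3). *Gfi1*+/+ replicate 3 was the lowest of all 6 libraries, so that the groups overlapped. The log2 fold change was -0.28 (standard error 0.184, unadjusted p = 0.160, adjusted p = 0.999 from limma with Benjamini-Hochberg adjustment), with an interval from 0.617-fold to 1.10-fold. The value depended on single libraries, with -0.51 without *Gfi1*+/+ replicate 3 (unadjusted p = 0.00169, adjusted p = 0.109) and -0.10 without *Gfi1*+/+ replicate 2 (unadjusted p = 0.552, adjusted p = 0.9997) in the same limma test. Without *Gfi1*+/+ replicate 3, 2340 of the 14455 genes tested had an unadjusted p-value under 0.05 in limma, against 439 with all libraries. The other CYP26 genes, *Cyp26a1* and *Cyp26c1*, were not among the listed genes.

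The receptors had the most even values of the set. *Rara* (ENSMUSG00000037992, chr11:98927818-98974942, plus strand), the broadly expressed receptor, had 770, 729 and 787 normalized reads in *Gfi1*+/+ and 723, 720 and 783 in *Gfi1*cre/+. Its highest library exceeded its lowest by a factor of 1.09, and the log2 fold change of -0.04 (standard error 0.0629, limma) had an interval from 0.882-fold to 1.07-fold.

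*Rarb* (ENSMUSG00000017491, chr14:16430839-16819156, minus strand), the receptor with the response element shown above, had 595, 574 and 544 normalized reads in *Gfi1*+/+ and 537, 589 and 560 in *Gfi1*cre/+. The libraries of the genotypes alternated, and the log2 fold change of -0.02 (standard error 0.0663, limma) had an interval from 0.887-fold to 1.09-fold. Of the exon bases of *Rarb*, 38.4% overlap exons of *Top2b* and the antisense *Gm48162* on the plus strand. The strand setting of the counting is not given in the sources used here, so the level of *Rarb* is uncertain to that extent. *Top2b*, at 1807 ± 68.7 normalized reads in *Gfi1*+/+ and 1772 ± 54.4 in *Gfi1*cre/+ (SD, n = 3), also had overlapping genotypes.

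**Figure D3:**
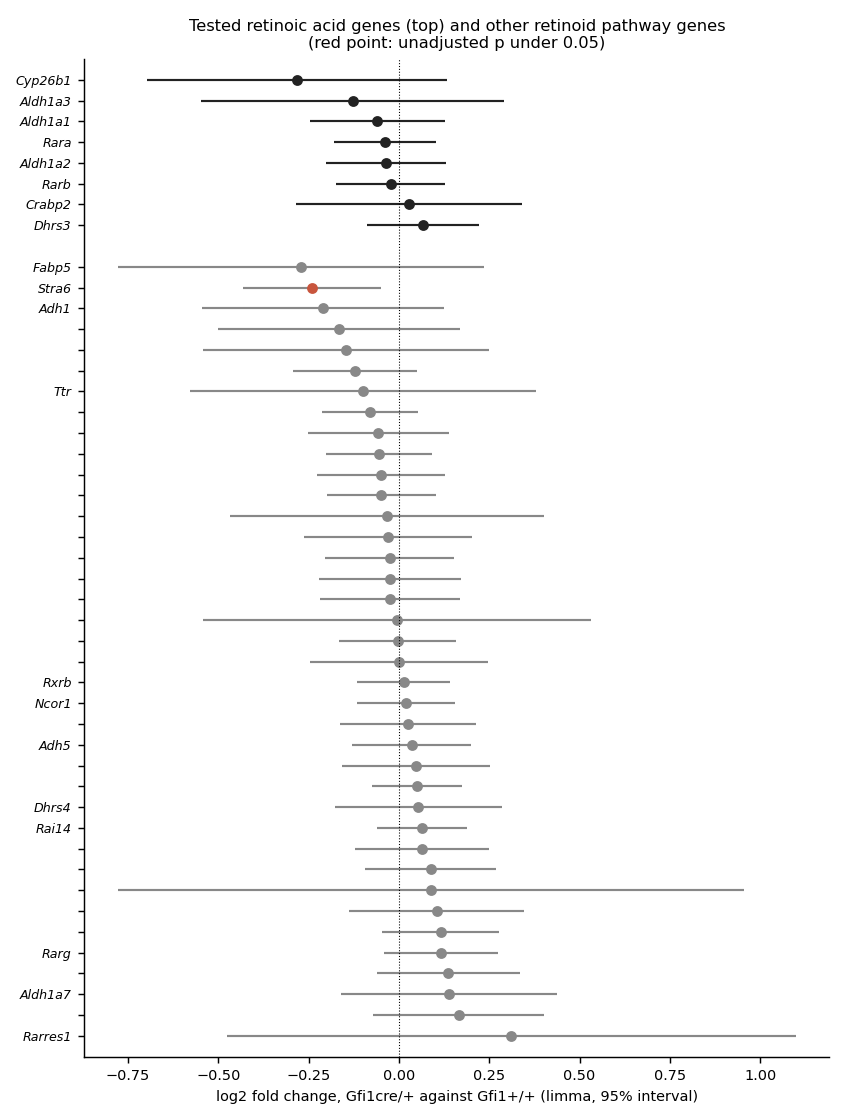
Log2 fold changes of *Gfi1*cre/+ against *Gfi1*+/+ from limma with 95% intervals, for the 8 retinoic acid genes tested (top) and 38 other genes of the retinoid pathway (below), each ordered by fold change, with a name where the text gives one. All 8 intervals at the top cross 0, from *Cyp26b1* at -0.28 to *Dhrs3* at 0.07, and *Stra6* at -0.24 is the 1 pathway gene with an unadjusted p-value under 0.05.

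Levels were compared between genes only after division by length. Per kilobase of merged GENCODE exons, the mean over the 6 libraries was 1781 normalized reads for *Aldh1a2*, 1169 for *Aldh1a1*, 392 for *Dhrs3*, 316 for *Crabp2*, 172 for *Rara*, 136 for *Cyp26b1*, 108 for *Rarb*, 29.8 for *Aldh1a3* and 5.17 for *Crabp1*. *Aldh1a2* and *Aldh1a1* stood above 97.1% and 95.3% of the 14796 genes with a known length, *Rarb* above 50.3%, *Aldh1a3* above 20.1% and *Crabp1* above 1.72%. Neighbours in this order kept it in all 6 libraries with ranges apart, with 3 exceptions. The ranges of *Dhrs3* and *Crabp2* and of *Rara* and *Cyp26b1* overlapped, and each pair kept its order in 5 of the 6 libraries. The ranges of *Cyp26b1* and *Rarb* also overlapped, with the order kept in all 6. The order of 2 neighbouring pairs rests on the length used. *Aldh1a1* has 6 annotated transcripts and 4937 merged exon bases, and per kilobase of the longest transcript it had 2447 normalized reads, above the 1781 of *Aldh1a2*, which has 1 transcript. On the same scale *Rarb* had 182 and *Cyp26b1* 162, the reverse of their order by merged exons. The level and place of *Rarb* are also uncertain on either scale, because 38.4% of its exon bases overlap other genes.

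**Figure D4:**
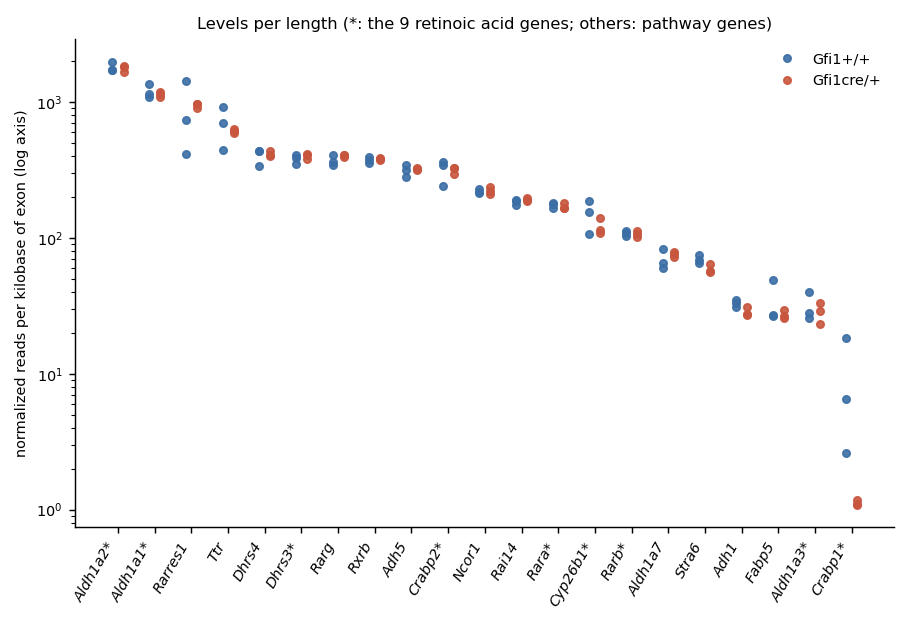
Normalized reads per kilobase of merged exons in each library (log axis), for the 9 retinoic acid genes (asterisks) and the other pathway genes named in the text, ordered by mean. *Aldh1a2* has the highest mean of those shown, at 1781, followed by *Aldh1a1* at 1169, and *Crabp1* has the lowest, at 5.17.

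The genes differed in their spread between libraries of the same genotype. The SD of log2(normalized reads + 1) within genotypes was 0.0629 for *Rara*, 0.0652 for *Rarb*, 0.0872 for *Dhrs3*, 0.102 for *Aldh1a2* and 0.122 for *Aldh1a1*, beside a median of 0.108 over all genes tested. It was 0.229 for *Crabp2*, 0.292 for *Aldh1a3* and 0.323 for *Cyp26b1*, which exceeded 86.2%, 91.8% and 93.5% of the genes tested. These shares are over genes of all levels, and the value of *Aldh1a3* rests on 97 to 175 reads per library. Of the 9 genes, 7 had a larger SD on the log2 scale in *Gfi1*+/+ than in *Gfi1*cre/+, as did 71.2% of all genes tested. The *Gfi1*cre/+ libraries averaged over 3 mice and the *Gfi1*+/+ libraries did not. Of the 9 genes, 8 had their highest library in *Gfi1*+/+, 4 of them (*Aldh1a1*, *Crabp1*, *Crabp2* and *Rarb*) in replicate 1. The share of all genes with their highest library in *Gfi1*+/+ was not counted, so the 8 cannot be read as particular to this set. Over all genes tested, the median SD on the log2 scale was 0.119 in *Gfi1*+/+ and 0.0737 in *Gfi1*cre/+.

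**Figure D5:**
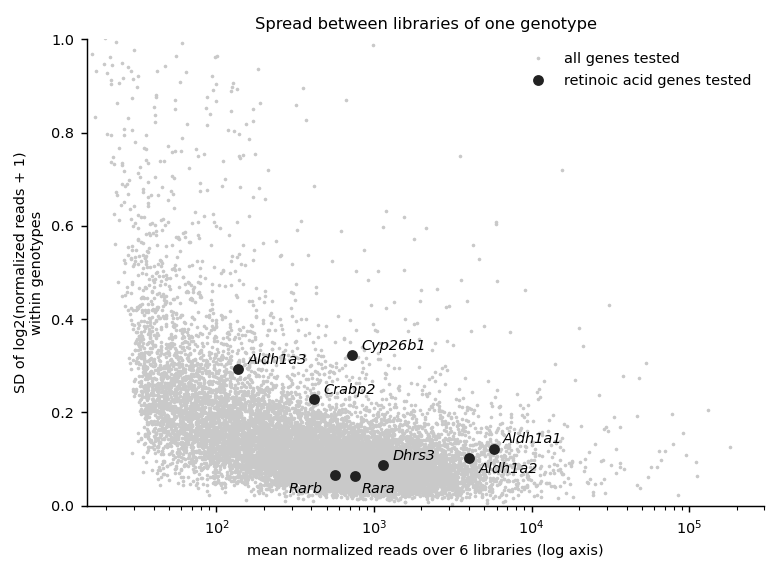
SD of log2(normalized reads + 1) within genotypes against the mean normalized reads (log axis) for the genes tested (grey) and the 8 retinoic acid genes tested (black); 114 genes lie beyond the axes. *Cyp26b1* at 0.323, *Aldh1a3* at 0.292 and *Crabp2* at 0.229 lie above most genes, and *Rara* and *Rarb* lie among the least variable.

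Of 55 other genes of the retinoid pathway, grouped by role, 38 were listed and all 38 were tested. Of these, 18 were higher and 20 lower in *Gfi1*cre/+, with a median log2 fold change of -0.0020, and 1 had an unadjusted p-value under 0.05 in limma, which is 2.63% of the 38 beside 3.04% of all genes tested. After adjustment in limma the count was 0. The fold changes ran from -0.27 for *Fabp5*, a fatty acid binding protein that can also carry retinoic acid, to 0.31 for *Rarres1*, a retinoic acid-induced gene.

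Among 6 listed genes of retinol uptake and storage, the 1 gene past the unadjusted threshold was *Stra6* (ENSMUSG00000032327), the cell surface receptor that takes up retinol from its plasma carrier and a gene induced by retinoic acid. It had 438, 399.96 and 382 normalized reads in *Gfi1*+/+ and 327, 331 and 374 in *Gfi1*cre/+, so that the groups did not overlap, *Gfi1*+/+ replicate 3 and *Gfi1*cre/+ replicate 3 being the closest. The log2 fold change was -0.24 (standard error 0.0843, unadjusted p = 0.0187, adjusted p = 0.999 from limma with Benjamini-Hochberg adjustment). The unadjusted p in limma rose to 0.0678 without *Gfi1*+/+ replicate 1, to 0.0705 without *Gfi1*cre/+ replicate 1 and to 0.0658 without *Gfi1*cre/+ replicate 2. It was 0.0344 without *Gfi1*+/+ replicate 2, 0.00903 without *Gfi1*+/+ replicate 3 and 0.0114 without *Gfi1*cre/+ replicate 3. *Ttr*, which carries retinol with its plasma binding protein and is also a marker of choroid plexus, had 813 ± 281 normalized reads in *Gfi1*+/+ and 728 ± 25.9 in *Gfi1*cre/+ (SD, n = 3).

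The 9 listed genes of retinol oxidation had log2 fold changes between -0.21 and 0.05, with 3 higher and 6 lower. Of these, *Dhrs4* and *Adh5* were the most abundant per kilobase, with 708 ± 103 and 1698 ± 164 normalized reads in *Gfi1*+/+ and 729.96 ± 30.3 and 1734 ± 22.9 in *Gfi1*cre/+ (SD, n = 3). *Adh1*, named after its values had been seen, was together with *Stra6* the pathway gene whose genotypes did not overlap, with 69.1 to 78.1 normalized reads in *Gfi1*+/+ and 60.9 to 68.9 in *Gfi1*cre/+. These 2 genes are 5.26% of the 38, beside 7.52% of all genes tested.

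Of 6 other receptors and carriers, 5 were higher and 1 lower in *Gfi1*cre/+, and 0 passed the unadjusted threshold in limma. *Rarg*, the third RAR gene, had 1584 ± 145 normalized reads in *Gfi1*+/+ and 1713 ± 33.4 in *Gfi1*cre/+ (SD, n = 3), and at 387 per kilobase it exceeded *Rara* and *Rarb*. *Rxrb*, one of the RXR genes whose products partner the RARs, had 1495 ± 77.3 and 1508 ± 27.2. The 8 cofactors of nuclear receptors had log2 fold changes between -0.12 and 0.14, with 4 higher and 4 lower. Of these, the corepressor *Ncor1* had 2809 ± 97.8 normalized reads in *Gfi1*+/+ and 2850 ± 165 in *Gfi1*cre/+.

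The 8 listed genes known to respond to retinoic acid split into 3 higher and 5 lower, with a median log2 fold change of -0.03. *Rarres1* was the most variable of them, with 980, 547 and 1887 normalized reads in *Gfi1*+/+ against 1275, 1190 and 1272 in *Gfi1*cre/+. Its *Gfi1*cre/+ libraries thus lay inside the range of *Gfi1*+/+, and the log2 fold change of 0.31 had a standard error of 0.348 in limma. *Rai14* had 1550 ± 64.3 and 1619 ± 41.0 normalized reads (SD, n = 3). *Aldh1a7*, the other listed enzyme of the ALDH1A family, had 143 ± 24.9 and 157 ± 7.65.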

How the data were processed

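RNA was extracted from cochlear ducts and sequenced by the authors with the TruSeq kit. Reads were aligned to mm10 with TopHat, and uniquely mapped reads were counted on genes with HTSeq. The study took genes with at least 40 reads as expressed. *Crabp1*, however, is listed with 19 reads over the *Gfi1*+/+ libraries and 3 over the *Gfi1*cre/+ libraries. How that limit was applied to the listed genes is thus not known. Versions, annotation and strand setting are not given in the sources used here. The authors deposited 1 signal per gene and library, described as quantile-normalized. In each library every value (100%) is a whole number of reads over 1 size factor (tolerance 0.011), which recovers the reads. Column names gave genotype and replicate.

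The 14455 of 14865 genes that reached 40 normalized reads in any library were tested by limma 3.58.1 in R 4.3.3 on log2(normalized reads + 1), genotype as the only term, eBayes with a trend, two-sided. This scale understates the change of low genes. The study tested counts with DESeq, whereas edgeR 4.0.16 and DESeq2 1.42.0 were run here on the recovered reads as alternatives. Gene positions and lengths came from GENCODE M21 (GRCm38), to which 14796 identifiers matched. The steps were tested on simulated data, with changes larger than any seen in the tested retinoic acid genes and equal spread in both genotypes. Whether smaller changes would be found was not tested. The 9 genes, the pathway and marker lists and the tests were chosen with earlier results of these data known. Other pathway genes are named where the unadjusted p was under 0.05 or where they led their role per kilobase (some genes under these rules are not reported here), and single markers only to check the tissue. P-values rest on the spread between 3 libraries per genotype, and the main limma test takes this spread as equal in both genotypes. Its median over genes was larger in *Gfi1*+/+, whose libraries came from 1 mouse each and not from pools of 3. A count of 0 allows up to 3 reads.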

Additional observations from a re-analysis of the deposited data

How the results depend on the processing

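No adjusted p-value of the 9 genes fell under 0.05 under any alternative. The number with an unadjusted p-value under 0.05 was 0 by limma, and 1 (*Cyp26b1*) with array weights, with the replicate number as a block and without *Gfi1*+/+ replicate 3, a range of 0 to 1 with single libraries left out. Same-numbered libraries are not paired by the labels, and their deviations correlated at -0.0944, 0.107 and -0.0326. Under the block *Cyp26b1* had a log2 fold change of -0.28 (unadjusted p = 0.0235, adjusted p = 0.999 from limma), and 1 pathway gene passed, as without it. The number of other pathway genes at an unadjusted p-value under 0.05 was 2 without a trend (516 over all genes), 7 with array weights (1666 over all genes) and 0 to 7 with single libraries left out. Over all genes, the number at an adjusted p-value under 0.05 was 4 by limma, 10 by DESeq2, 0 at a mean of at least 200 (229 at an unadjusted p-value under 0.05) and 0 to 48 with single libraries left out, 48 without *Gfi1*+/+ replicate 3 and 0 without *Gfi1*cre/+ replicate 3 (248 unadjusted). The 4 by limma were the Y-linked *Ddx3y*, *Kdm5d*, *Eif2s3y* and *Uty*. Their means lay between 78.5 and 168 normalized reads, so the limit of 200 removed them. Over all genes, the number at an unadjusted p-value under 0.05 was 439 by limma, 462 with the block and 1666 with array weights. It was 216 to 2340 with single libraries left out, with 2340 without *Gfi1*+/+ replicate 3. Log2 fold changes changed sign with array weights for *Crabp2* (-0.089) and *Rara* (0.0066). With single libraries left out they changed sign for 5 of the 8 genes tested, namely *Aldh1a1* (-0.125 to 0.032, the latter without *Gfi1*+/+ replicate 1), *Rarb* (-0.057 to 0.0093, with 0.0071 without *Gfi1*+/+ replicate 1 and 0.0093 without *Gfi1*cre/+ replicate 1), *Aldh1a3* (-0.248 to 0.056, with 0.056 without *Gfi1*+/+ replicate 2 and 0.0094 without *Gfi1*cre/+ replicate 1), *Aldh1a2* (-0.072 to 0.034, with 0.034 without *Gfi1*+/+ replicate 3 and 0.0090 without *Gfi1*cre/+ replicate 3) and *Crabp2* (-0.15 to 0.133, the former without *Gfi1*+/+ replicate 3). The cause was not tested. The median of the genes stayed between -0.07 and -0.0089. The *Crabp1* ratio rests on 19 and 3 reads, 12 of the 19 in *Gfi1*+/+ replicate 1, and was 7.79 with that library and 4.09 without it.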

Other observations

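For the 3 retinoic acid genes with the largest spread over the 6 libraries, the genes with the most similar pattern were looked up among 13922 genes averaging 40 normalized reads or more, by Pearson's r of log2(normalized reads + 1) over 6 libraries, given as a description. The closest to *Crabp1* was *Fbxo41* (r = 0.997), which had 109, 62.8 and 48.5 normalized reads in *Gfi1*+/+ and between 37.3 and 37.7 in *Gfi1*cre/+, followed by *Gm10705* (r = 0.996) and *4930523C07Rik* (r = 0.990). The closest to *Cyp26b1* were *Zfp281* (r = 0.997), *Sept10* (r = 0.994) and *Zfp26* (r = 0.985). Genes close to *Aldh1a3* were *Gpr161* (r = 0.977) and *Entpd1* (r = 0.9748). With 6 libraries, an r above 0.95 was reached by 77, 32 and 20 genes for *Crabp1*, *Cyp26b1* and *Aldh1a3*, and the points share their libraries and size factors.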
